A study of Homo sapiens with 6 samples.

Results

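Antigen receptor loci are the gene clusters that lymphocytes cut and join to make T cell receptors and antibodies. The loci described here are TRA with TRD (T cell receptor alpha and delta), TRB (beta), TRG (gamma) and IGH (immunoglobulin heavy chain), read in ME-1, an established human myeloid leukemia cell line. Members were all ChIP-seq peaks within 4 windows of hg19. These were 22.09 to 23.05 Mb of chromosome 14 for TRA and TRD, 141.99 to 142.53 Mb of chromosome 7 for TRB, 38.26 to 38.42 Mb of chromosome 7 for TRG, and 106.03 to 107.29 Mb of chromosome 14 for IGH. The windows together spanned 2.92 Mb and held 417 of 145457 peaks in 4 lists, all of which are counted below. The loci were chosen by the RUNX1 and H3K27ac peaks that earlier results of these data showed there, so the presence of peaks is a description and not a finding.

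ME-1 carries inv(16), which fuses CBFB to MYH11. AI-10-49 is a small molecule that blocks the contact of the fusion protein CBFβ-SMMHC with the transcription factor RUNX1. Cells received AI-10-49 at 1 µM for 6 h, against DMSO for 6 h, and chromatin was precipitated for RUNX1 or for acetylated lysine 27 of histone H3 (H3K27ac), a mark of active enhancers and promoters. Each antibody and condition had 1 library from 1 cell line, so no difference could be set against a replicate spread, no test was made, and intervals cover counting error only.

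In lymphocyte precursors the RAG recombinase joins variable (V), diversity (D) and joining (J) segments ahead of a constant (C) gene. Each locus is opened and transcribed under an enhancer at or near its constant end. The alpha enhancer downstream of the TRA constant gene is a textbook RUNX1 target, where RUNX1 binds beside other factors, and the beta, gamma and delta enhancers also hold RUNX1 motifs. These loci are known for activity in lymphoid cells, while ME-1 belongs to the myeloid lineage. Recombination, transcripts and copy number of the loci were not measured here, so the lineage label was not checked against marker transcripts.

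Values per peak are the number of DNA fragments over the summit, per M (mega) reads of that library. Fragment numbers were recovered from the deposited fold enrichment and −log10 p, and fold enrichments and −log10 q values are the authors' own. Read totals were derived from the peak lists, at 31.5 M reads (AI-10-49) and 33.8 M (DMSO) for RUNX1, and 37.0 M and 35.7 M for H3K27ac. Fragment length was not measured and was taken as the width of the narrowest peak of each list. By this proxy fragments were 1.13 times (RUNX1) and 1.09 times (H3K27ac) as long in AI-10-49, which raises summit numbers there. Ratios are printed without a correction for it, and values with the correction are given where a direction or count turns on it. A site or region was taken as present in both lists when the intervals overlapped by at least 1 bp.

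RUNX1 was listed at 32 sites of the windows in AI-10-49 and at 10 in DMSO. All 10 DMSO sites overlapped an AI-10-49 site, with summits at most 151 bp apart, while 8.82% of DMSO sites genome-wide overlapped none. The other 22 AI-10-49 sites (68.8%, exact Clopper-Pearson 95% interval 50.0 to 83.9) overlapped no DMSO site, against 85.1% of all RUNX1 sites of that list. Sites numbered 6 in AI-10-49 and 1 in DMSO in TRA and TRD, 7 and 0 in TRB, 7 and 2 in TRG, and 12 and 7 in IGH. With the AI-10-49 list cut to the 1701 sites of highest −log10 q, the length of the DMSO list, the counts were 2 and 1, 1 and 0, 2 and 2, and 5 and 7, so that IGH turned round. The ratio of list lengths was thus 3.2 over the windows and 6.07 over the genome, and it was lowest in IGH, at 1.71. The windows were rich in sites in both conditions, with 10.96 per Mb in AI-10-49 and 3.42 per Mb in DMSO, against 3.33 and 0.549 per Mb of the genome. The loci were chosen by their peaks, so this density is a description, and how much of it follows from the choice was not determined.

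Of the 10 sites in both lists, 7 had a summit ratio (fragments per M reads, AI-10-49 over DMSO) of at least 1.5, against 76% of such sites genome-wide. Their median ratio was 3.04, against 2.1 over 1551 sites of the genome. In 8 of the 10 the 95% counting interval of the ratio lay above 1, and in 7 after division by the ratio of fragment lengths. By the ratio of the authors' fold enrichments, which set the summit against the local background of each list, all 10 were at or above 1.5. Genome-wide shares by counting interval or by fold enrichment were not computed, so these counts do not set the loci apart. The 22 sites listed in AI-10-49 alone had 0.444 to 2.35 fragments per M reads, with a median of 0.825. Most of them were low, but the highest 3 of the 22 (2.35, 1.97 and 1.55) had more fragments per M reads than 2 of the sites in both lists had in AI-10-49 (1.33 and 1.27).

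**Figure D1:**
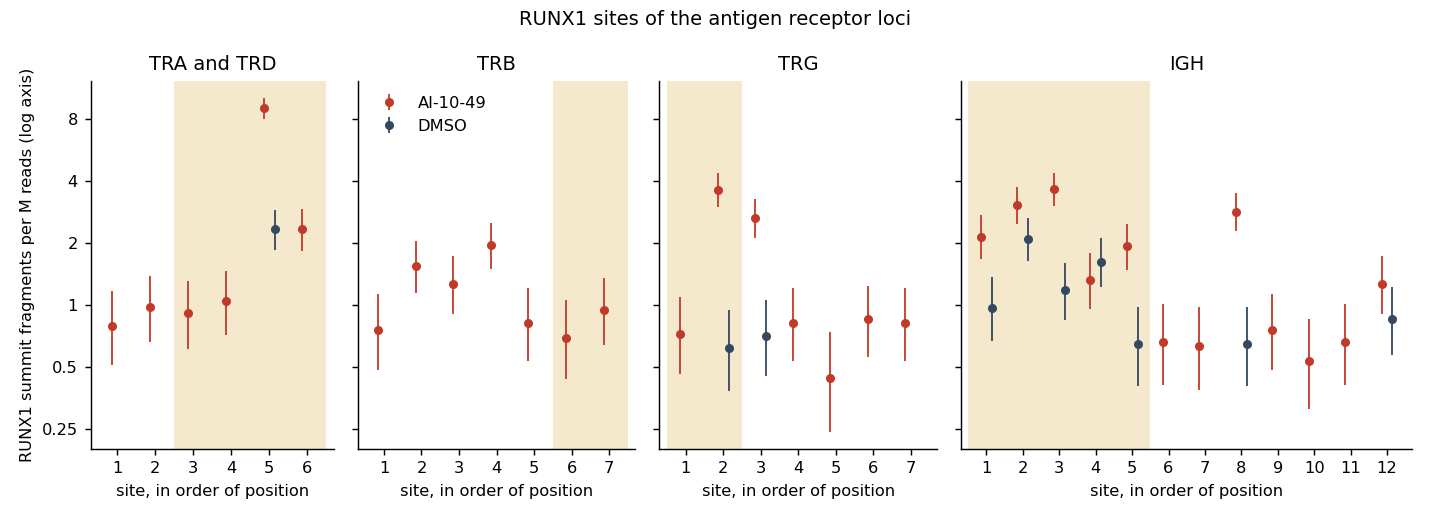
RUNX1 summit fragments per M reads (log axis) at each RUNX1 site of the 4 loci, numbered by position, with exact Poisson 95% intervals from 1 library per condition. AI-10-49 points (red) stand left of DMSO points (blue), shading marks the constant end of each window, and the alpha enhancer site (TRA and TRD, site 5) is the highest at 9.07 in AI-10-49.

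The alpha enhancer carried the RUNX1 site with the highest −log10 q of the AI-10-49 list. The site at chr14:23025057-23025753 (hg19, as all positions here) had 286 summit fragments, or 9.07 per M reads (95% interval 8.05 to 10.2), in AI-10-49, against 79 fragments, or 2.34 per M reads (1.85 to 2.91), in DMSO. The ratio was 3.88 (3.01 to 5.04). By −log10 q it ranked 1 of 10319 in AI-10-49 and 20 of 1701 in DMSO. The enhancer was therefore among the strongest RUNX1 sites of the genome in both conditions, and the intervals of its 2 levels did not overlap.

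H3K27ac at the alpha enhancer was lower in AI-10-49 and was divided there. DMSO had 1 region at chr14:23023278-23027363, with 7.93 fragments per M reads, which enclosed the RUNX1 summit. AI-10-49 had 2 regions in its place, chr14:23023282-23025290 with 3.76 and chr14:23025434-23028222 with 6.14 fragments per M reads. The RUNX1 summit of AI-10-49 lay in the gap between them, 71 bp from the nearer edge. For the higher of the pair, the ratio to the DMSO region was 0.774 (0.647 to 0.925). RUNX1 was thus higher and H3K27ac lower in AI-10-49 at this enhancer. That H3K27ac interval included the genome median of 0.838, and 0.774 lay above the 0.705 of regions genome-wide with an AI-10-49 RUNX1 site. An acetylated region within 5 kb on the TRAC side, chr14:23018347-23020941 in AI-10-49 (1.84 fragments per M reads) and chr14:23018290-23021657 in DMSO (3.31), had a ratio of 0.556 (0.406 to 0.756).

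A further RUNX1 site lay 5.42 kb beyond the enhancer, toward DAD1, the gene next to TRAC and a ubiquitous subunit of the oligosaccharyltransferase. It held 74 fragments (2.35 per M reads, 1.84 to 2.95) at chr14:23030621-23031009 in AI-10-49 and was not listed in DMSO. Its H3K27ac region had 2.30 fragments per M reads in AI-10-49 and 3.64 in DMSO, a ratio of 0.631. It was the strongest site of the windows that AI-10-49 alone listed.

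The TRD segments, which lie inside TRA, held 2 RUNX1 sites in AI-10-49 and none in DMSO. The site at chr14:22929541-22929818 had 33 fragments (1.05 per M reads) and falls where the known map of the locus places the delta enhancer, between the delta joining segments and the delta constant gene. The site at chr14:22917357-22917704 had 29 (0.920 per M reads). Both stood on acetylated chromatin of both conditions, with 4.001 and 4.33 H3K27ac fragments per M reads in AI-10-49, against 4.88 and 5.21 in DMSO. The ratios of 0.821 and 0.830 were close to the genome median of 0.838, and both intervals included 1. The highest H3K27ac region without RUNX1 in this locus lay just beyond, at chr14:22892306-22904716, with 4.57 fragments per M reads in AI-10-49 and 4.93 in DMSO.

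Among the alpha variable segments RUNX1 was sparse. The site at chr14:22539410-22539586 had 25 fragments (0.793 per M reads) in AI-10-49. Its summit lay 248 bp outside the nearest H3K27ac region of AI-10-49 and inside one of DMSO (1.34 fragments per M reads). The site at chr14:22645792-22646050 had 31 (0.984 per M reads) and was 48659 bp (AI-10-49) and 48652 bp (DMSO) from the nearest H3K27ac region. Neither was listed in DMSO.

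**Figure D2:**
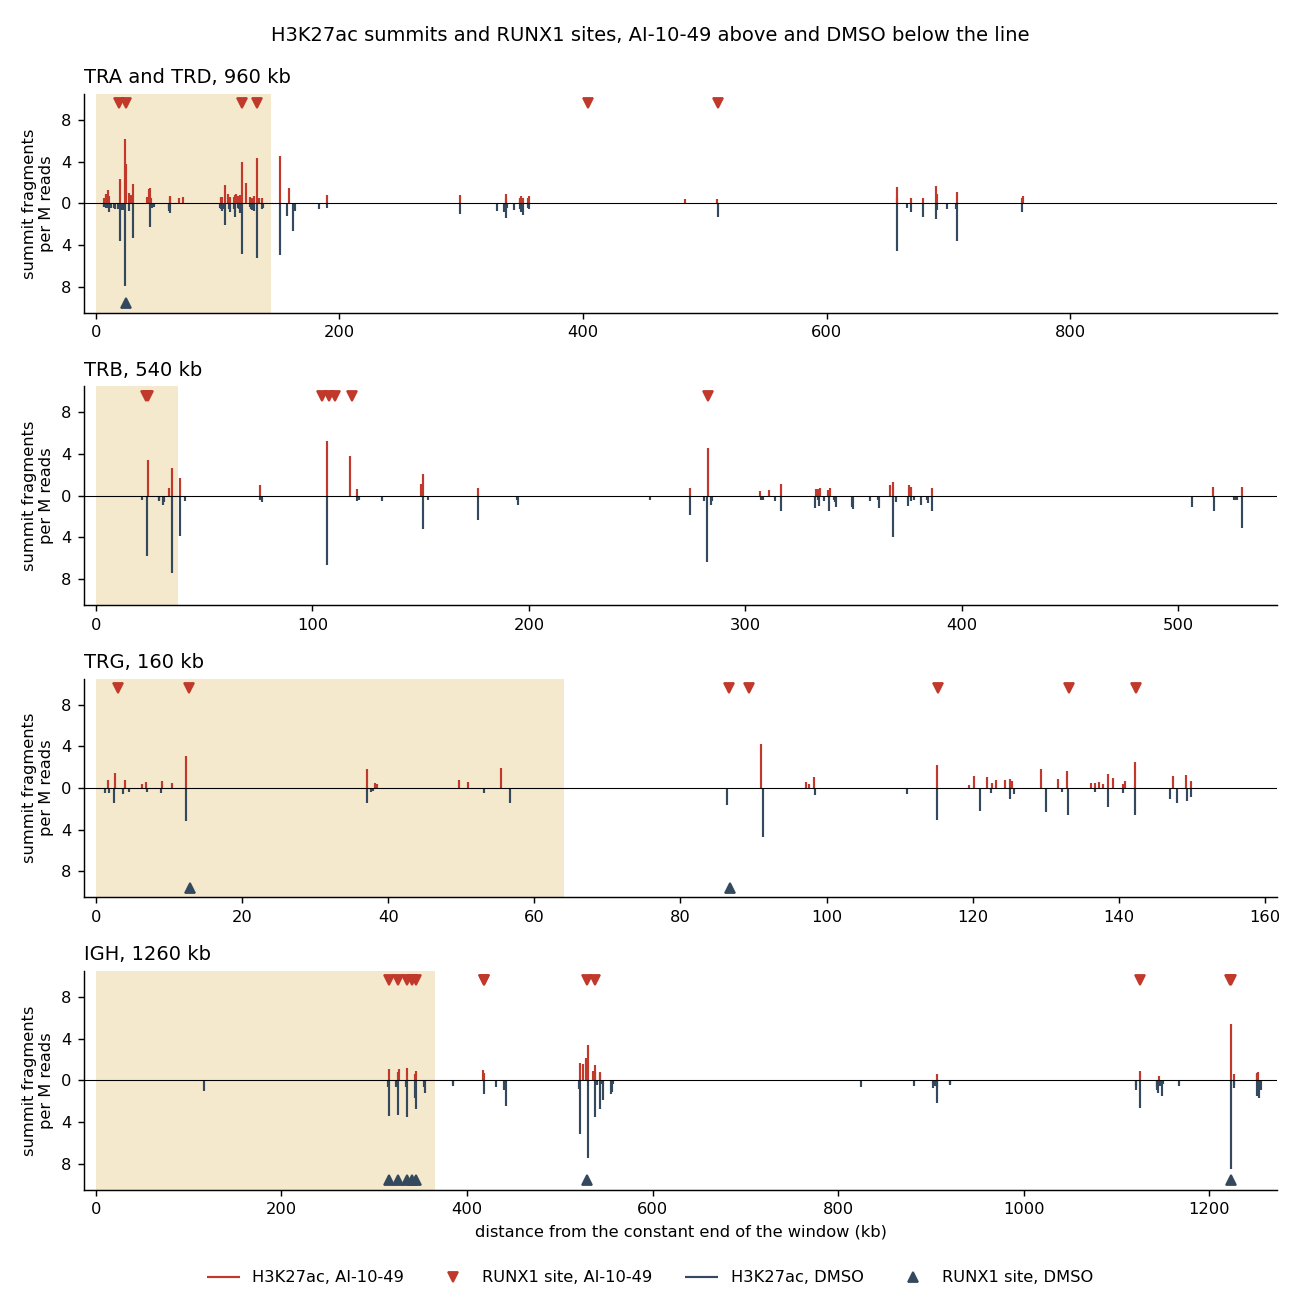
Summit fragments per M reads of every H3K27ac region (lines) and positions of RUNX1 sites (triangles) against distance in kb from the constant end of each window, with AI-10-49 above and DMSO below the line and the constant end shaded. AI-10-49 triangles lie close together at the IGH diversity segments and in the long acetylated domain among the TRB variable segments. DMSO lines outnumber AI-10-49 lines in TRB (58 against 29 regions) and IGH (56 against 25).

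TRG was the most densely marked locus, with 43.8 RUNX1 sites per Mb in AI-10-49 and 12.5 in DMSO. The site at chr7:38272450-38273100, where the known map places the gamma enhancer downstream of the second gamma constant gene, had 115 fragments (3.65 per M reads, 3.01 to 4.38) in AI-10-49, against 21 (0.622, 0.385 to 0.9503) in DMSO. The ratio of 5.87 (3.66 to 9.84) was the highest of the 10 sites in both lists. Its rank by −log10 q was 282 of 10319 in AI-10-49 and 1596 of 1701 in DMSO, so this site was near the bottom of the DMSO list. Its H3K27ac differed little, with 3.08 fragments per M reads in AI-10-49 and 3.17 in DMSO (ratio 0.973, 0.744 to 1.27).

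The other TRG site in both lists, chr7:38346537-38346913, lay in the variable part and had 84 fragments (2.67 per M reads) in AI-10-49, against 24 (0.711) in DMSO, a ratio of 3.75 (2.36 to 6.18). In AI-10-49 it lay inside 1 H3K27ac region of 4.24 fragments per M reads, and in DMSO between 2 regions, 59 bp from the nearer, the higher of which had 4.65. The TRG window was the opposite of the alpha enhancer in this detail, since here the interval was closed in AI-10-49.

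The remaining 5 TRG sites were listed in AI-10-49 only. The site at chr7:38262897-38263164 (23 fragments, 0.730 per M reads) lay 3.06 kb inside the low border, in the neighbouring gene STARD3NL by the known map. Those at chr7:38349302-38349475, chr7:38375123-38375326, chr7:38393112-38393312 and chr7:38402224-38402656 spread over the variable segments with 26, 14, 27 and 26 fragments. Each of the 5 overlapped H3K27ac in both conditions. The H3K27ac ratios over all 7 TRG sites ran between 0.633 and 0.973, with a median of 0.913.

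TRB had RUNX1 in AI-10-49 only. The 7 sites had 0.698 to 1.97 fragments per M reads there, and the DMSO list held none in the window and none within 373 kb of either border. Downstream of the second beta constant gene, where the known map places the beta enhancer, were sites at chr7:142505656-142505836 (22 fragments) and chr7:142506519-142506858 (30 fragments, 0.952 per M reads). Both lay in 1 H3K27ac region of each list, with 3.43 fragments per M reads in AI-10-49 and 5.80 in DMSO (ratio 0.592, 0.471 to 0.742). RUNX1 at this enhancer was thus weaker than at the alpha and gamma enhancers, while its acetylation in each condition lay between that of the gamma and the alpha enhancer.

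The strongest TRB sites were not at the enhancer but within a long acetylated domain among the variable segments. In DMSO the domain was 1 region of 20.7 kb at chr7:142411039-142431749 with 6.67 fragments per M reads, and in AI-10-49 it was 17.8 kb of 5.25 fragments per M reads beside a shorter region of 3.81. RUNX1 sites at chr7:142411717-142412045, chr7:142419541-142419995, chr7:142422241-142422510 and chr7:142425395-142425630 stood in it with 49, 40, 62 and 26 fragments. The last TRB site, chr7:142246972-142247193, had 24 fragments in a region of 4.62 (AI-10-49) and 6.36 (DMSO) H3K27ac fragments per M reads. All 7 TRB sites therefore lay inside acetylated regions of both lists, with H3K27ac ratios of 0.572 to 0.787.

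The highest H3K27ac region of TRB in DMSO held no RUNX1 site. It lay at chr7:142493820-142497532, at beta diversity and joining segments by the known map, and had 2.65 fragments per M reads in AI-10-49, against 7.45 in DMSO. The ratio was 0.356 (0.279 to 0.450), and its interval lay below that of the beta enhancer.

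**Figure D3:**
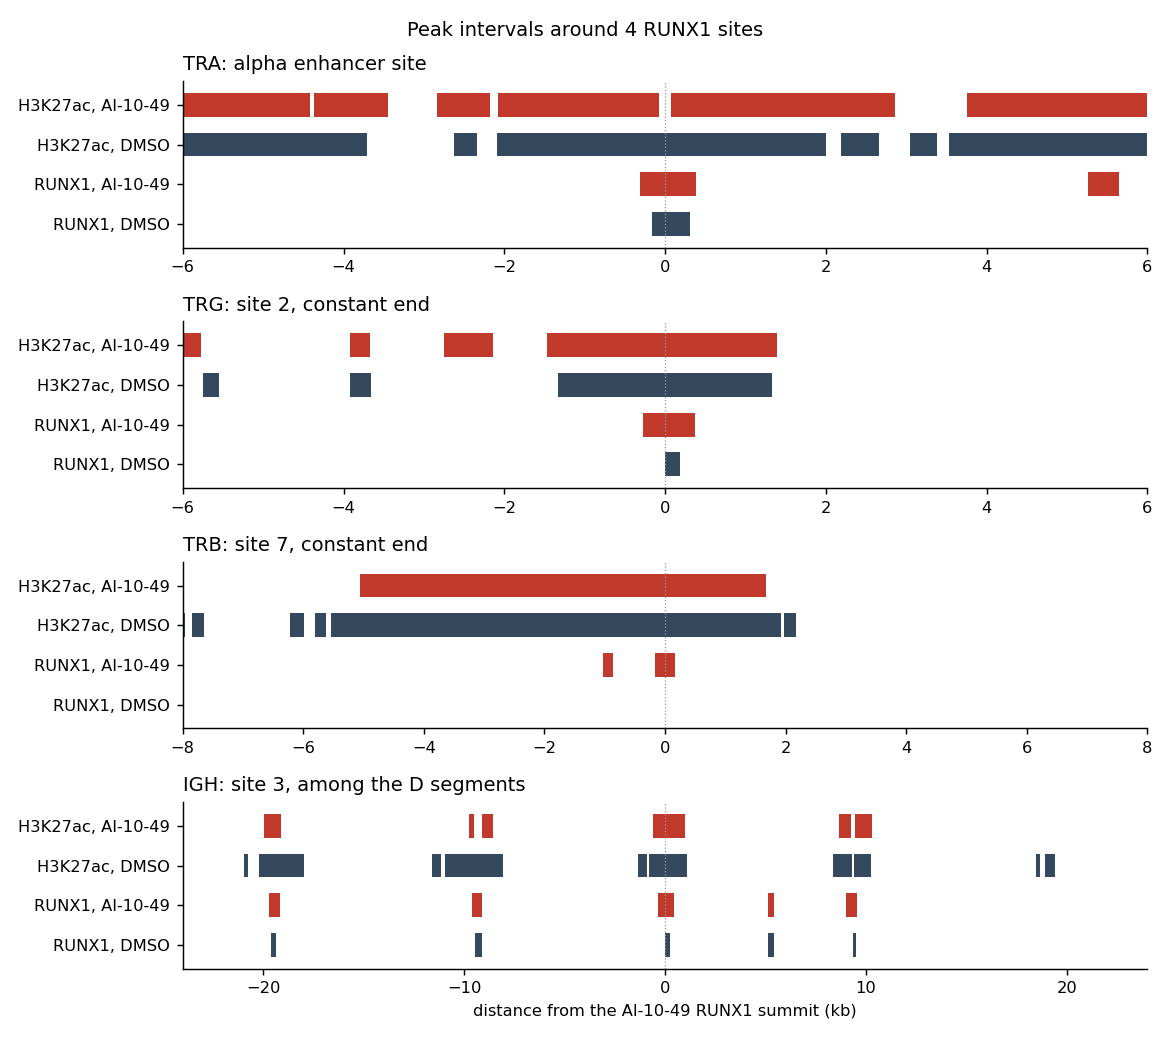
Intervals of H3K27ac regions and RUNX1 sites against distance in kb from the AI-10-49 RUNX1 summit at the alpha enhancer, a TRG and a TRB site of the constant end and an IGH site, with AI-10-49 rows above DMSO rows. At the alpha enhancer the H3K27ac region is divided at the summit in AI-10-49 only, and in IGH the RUNX1 sites recur at spacings of 9.33 to 10.1 kb with 1 more between.

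IGH held 7 of the 10 DMSO RUNX1 sites, though TRG had more per Mb in DMSO (12.5, against 5.56 in IGH). Of the 12 AI-10-49 sites of IGH, 7 were also in the DMSO list. By the known map, 5 of these formed a row over the diversity segments. From the constant side these 5 had 68, 97, 116, 42 and 61 fragments in AI-10-49, against 33, 71, 40, 55 and 22 in DMSO. Per M reads this was 2.16, 3.08, 3.68, 1.33 and 1.94 in AI-10-49, against 0.977, 2.102, 1.18, 1.63 and 0.651 in DMSO.

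The ratios within the row spread widely. They were 2.21 (1.44 to 3.46) at chr14:106345472-106346042, 1.46 (1.07 to 2.02) at chr14:106355574-106356077, 3.11 (2.15 to 4.57) at chr14:106364833-106365639 and 2.97 (1.80 to 5.08) at chr14:106374211-106374722. After division by the ratio of fragment lengths, site 2 of the row had 1.29 (0.941 to 1.78), an interval that included 1. At site 4 of the row, chr14:106370328-106370594, the ratio was 0.818, with an interval of 0.534 to 1.25 that included 1. It was the only site of the windows in both lists with fewer fragments per M reads in AI-10-49. By the authors' fold enrichment this site was higher in AI-10-49, at 10.7, against 6.25 in DMSO, so its direction depended on the measure. The ratios of fold enrichment along the row were 2.1016, 2.04, 4.98, 1.71 and 3.94, all above 1. None of the 10 was at or below 1/1.5, against 0.451% of such sites genome-wide. It was the only one of the 10 that overlapped no H3K27ac region in either list, the nearest being 3.43 kb (AI-10-49) and 3.10 kb (DMSO) away.

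The sites of the row were evenly spaced apart from that one. Summits were 10.1 kb apart between sites 1 and 2, 9.33 kb between sites 2 and 3, and 9.35 kb between sites 3 and 5. The heavy chain diversity segments are known to lie in tandem copies of 1 ancestral unit, whose near-identical sequence could share reads between copies. The placement of reads that match several copies was not given in the sources used here, so fragment numbers of single sites in this row are uncertain.

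Acetylation over the diversity segments was lower in AI-10-49. The regions at sites 1, 2, 3 and 5 had 1.14, 1.05, 1.19 and 0.919 H3K27ac fragments per M reads in AI-10-49, against 3.42, 3.36, 3.56 and 2.75 in DMSO. The 4 ratios ran between 0.314 and 0.335, with intervals that all ended below 0.5. The authors' fold enrichments of these regions were 5.38, 6.03, 5.63 and 6.59 in AI-10-49, against 13.01, 10.7, 9.37 and 13.5 in DMSO, and their ratios of 0.414, 0.565, 0.601 and 0.489 were closer to 1. RUNX1 had more fragments and H3K27ac fewer at each of these 4 sites, though at site 2 the length-corrected RUNX1 interval included 1. Reads shared between the tandem copies would affect H3K27ac as well, so the 4 sites may not be separate observations. The row gave 5 of the 10 RUNX1 sites in both lists and 5 of the 17 IGH pairs of H3K27ac regions counted below.

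The IGH variable segments held 2 of the highest H3K27ac regions of the windows. At chr14:106557277-106562110 (DMSO) acetylation was 3.43 fragments per M reads in AI-10-49, against 7.42 in DMSO (ratio 0.462, 0.371 to 0.574), and the RUNX1 site at chr14:106559098-106559636 had 90 fragments (2.86 per M reads) in AI-10-49, against 22 (0.651) in DMSO. The RUNX1 ratio was 4.38 (2.73 to 7.34). Near the far border, the region chr14:107251333-107255805 had 5.43 H3K27ac fragments per M reads in AI-10-49 and 8.55 in DMSO, the highest of any window, and RUNX1 at chr14:107252858-107253273 had 40 fragments, against 29 (ratio 1.48, 0.894 to 2.47). The second of these RUNX1 ratios had an interval that included 1.

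The other IGH variable sites were listed in AI-10-49 alone, and their 17 to 24 fragments put them among the weakest. They were chr14:106447660-106447981, chr14:106448055-106448241, chr14:106567703-106567930, chr14:107154791-107155052 and chr14:107252278-107252495. The H3K27ac regions they overlapped had ratios of 0.359 to 0.744. The immunoglobulin constant genes and the intronic heavy chain enhancer beside the joining segments, which lie below the row in coordinate, carried no RUNX1 site in either list. In that stretch of 316 kb from the low border to the row, AI-10-49 had no H3K27ac region, and the first DMSO region was at 116 kb.

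Over all 32 sites, 29 (90.6%) overlapped an H3K27ac region of AI-10-49, against 86.1% of all RUNX1 sites of that list, and 9 of the 10 DMSO sites overlapped one of DMSO, against 81.8%. Both shares were near the background. In each of the 29 sites with H3K27ac in both lists, the highest overlapping region had fewer fragments per M reads in AI-10-49. The ratios were 0.314 to 0.973 with a median of 0.713, in which sites that share a region count each. Values below 1 were also usual genome-wide, at 24831 of 35146 pairs with summits within 250 bp. The genome-wide share at RUNX1 sites was not computed. Counted by DMSO region, the median ratio was 0.636 over 25 regions with an AI-10-49 RUNX1 site and 0.965 over 97 without one in the windows, against 0.705 and 0.889 genome-wide. TRB went the other way, with 0.727 over 3 regions with a site and 0.564 over 19 without. In the windows, DMSO regions with a site were higher, with a median of 3.42 fragments per M reads against 0.588 without one. The pooled medians also mix loci, since 10 of the 25 were in IGH and 48 of the 97 in TRA and TRD. Whether the difference goes with RUNX1 itself was not tested. The AI-10-49 summit lay inside an H3K27ac region of both lists at 21 sites, of DMSO only at 7, of AI-10-49 only at 1, and of neither at 3. At 6 of the 7 the site still touched an AI-10-49 region, whose edge was 13 to 194 bp from the summit.

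H3K27ac regions of the windows numbered 157 in AI-10-49 and 218 in DMSO, while the whole lists were nearly equal (66350 and 67087). By locus they numbered 61 in AI-10-49 and 71 in DMSO (TRA and TRD), 29 and 58 (TRB), 42 and 33 (TRG), and 25 and 56 (IGH). The covered length was 69.4 kb and 79.8 kb in TRA and TRD, 48.2 kb and 70.5 kb in TRB, 47.4 kb and 40.5 kb in TRG, and 27.4 kb and 57.4 kb in IGH. Covered length in AI-10-49 was thus 0.478 of that in DMSO in IGH, 0.684 in TRB, 0.869 in TRA and TRD and 1.17 in TRG, against 0.908 over the genome.

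Regions of DMSO that overlapped none of AI-10-49 made up 39 of 56 (69.6%, 55.9 to 81.2) in IGH and 36 of 58 (62.1%, 48.4 to 74.5) in TRB, against 29% of all DMSO regions. They were 18 of 71 (25.4%) in TRA and TRD and 3 of 33 (9.09%) in TRG. In the other direction, 13 of 42 AI-10-49 regions (31.0%) in TRG overlapped none of DMSO, against 21% of all AI-10-49 regions. The counts were 5 of 61 in TRA and TRD, 2 of 29 in TRB and 0 of 25 in IGH. IGH and TRB were above the background for DMSO regions alone, and TRA with TRD and TRG were not.

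Among regions in both lists the order of the loci was the same. The median ratio of AI-10-49 over DMSO was 0.376 over 17 pairs in IGH, 0.623 over 22 in TRB, 0.927 over 53 in TRA and TRD and 1.04 over 30 in TRG, against 0.838 over 47607 pairs of the genome. Division by the ratio of fragment lengths took TRG to 0.953, below 1. By the authors' fold enrichment the medians were 0.536 (IGH), 0.702 (TRB), 0.947 (TRA and TRD) and 1.05 (TRG). IGH and TRB were thus closer to 1 by that measure, whose genome-wide median was not computed. At most 1/1.5 were 15 of 17 pairs in IGH, 12 of 22 in TRB, 10 of 53 in TRA and TRD and 2 of 30 in TRG, against 29.1% of pairs genome-wide. At least 1.5 were 0, 3, 14 and 10 pairs in the same order, against 12.8%. Many high ratios in TRA with TRD and TRG belonged to small DMSO regions that overlapped a wide AI-10-49 region with its summit elsewhere. With pairs whose summits lay within 250 bp, a choice made after seeing the data, the medians were 0.391 over 12 pairs (IGH), 0.654 over 19 (TRB), 0.905 over 37 (TRA and TRD) and 0.973 over 19 (TRG), against 0.799 genome-wide.

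**Figure D4:**
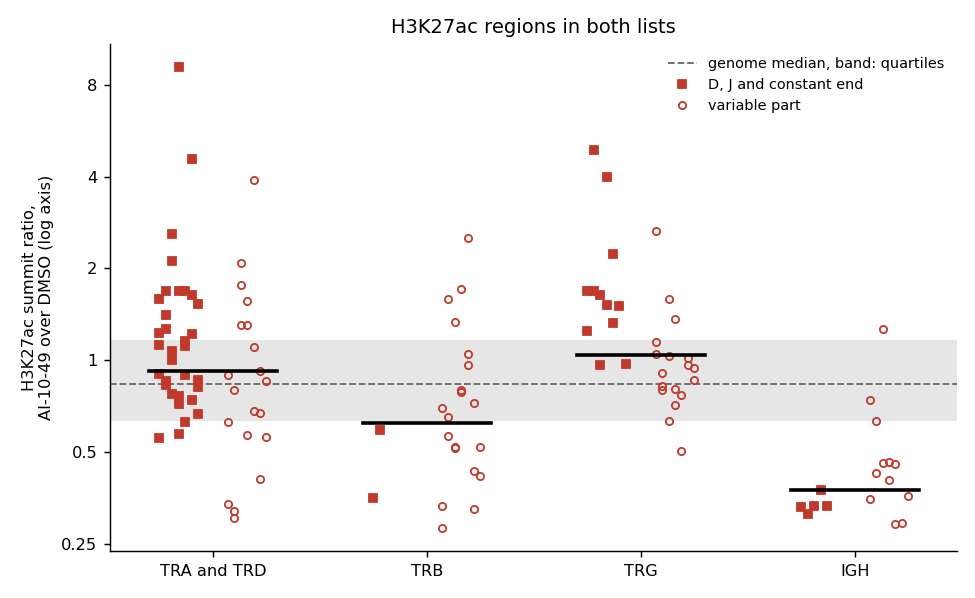
Ratio of H3K27ac summit fragments per M reads, AI-10-49 over DMSO (log axis), for each DMSO region that overlaps an AI-10-49 region, by locus; filled squares are the diversity, joining and constant end, open circles the variable part, black bars the locus medians. The dashed line is the genome median of 0.838 with its quartiles as a band, and 15 of 17 IGH points lie at or below 1/1.5.

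Among H3K27ac regions that 1 list alone held, the one with the highest −log10 q in the windows was in IGH. It lay at chr14:106471185-106471873 in DMSO with 87 fragments (2.44 per M reads, fold enrichment 13.96), and the nearest AI-10-49 region was 22.3 kb away. In TRB and in TRA with TRD the DMSO regions chosen in this way, by −log10 q, were chr7:142188014-142188377 (37 fragments) and chr14:22714564-22715719 (30 fragments), and in TRG chr7:38392187-38392415 (15 fragments). Of AI-10-49 they were chr7:38400776-38401026 and chr14:23007403-23007951 (24 fragments each, TRG and TRA) and chr7:142191927-142192350 (19 fragments, TRB). Each had fewer fragments than the IGH region, and IGH had none in AI-10-49.

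The enhancer or constant end was set against the variable segments by splitting each window at a fixed share of its length: 15% for TRA and TRD, 7% for TRB, 40% for TRG and 29% for IGH, counted from the constant end. The shares follow the known maps of the loci and could not be checked against an hg19 annotation. Over the 4 windows the constant end had 2.13 RUNX1 sites per 100 kb and the variable part 0.823 in AI-10-49, and 1.15 against 0.130 in DMSO. The IGH row, where copies may share reads, gave 5 of the 13 constant-end sites in AI-10-49 and 5 of the 7 in DMSO. H3K27ac covered 11.9% of the constant end and 5.18% of the variable part in AI-10-49, and 12.6% against 7.42% in DMSO. RUNX1 and acetylation were thus denser at the constant end in both conditions.

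This held for H3K27ac in TRA with TRD and in TRB but not in the others. In AI-10-49 the covered share was 28.3% at the constant end and 3.51% in the variable part of TRA and TRD, and 23.3% against 7.85% in TRB. In TRG the shares were 29.2% and 29.9%, and in IGH 1.304% and 2.53%. In DMSO they were 28.9% and 4.68% (TRA and TRD), 32.5% and 11.6% (TRB), 19.0% and 29.5% (TRG), and 3.005% and 5.19% (IGH). The IGH order rests on where the window was split: with a constant end 1.5 times as long, cover was higher there in both conditions. Likewise, RUNX1 density in TRG (3.13 sites per 100 kb at the constant end and 5.21 in the variable part in AI-10-49) turned round with a constant end 0.67 times as long.

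Regions of 1 list only were then counted along the windows. Of DMSO H3K27ac regions at the constant end, 22 of 74 (29.7%, 19.7 to 41.5) overlapped none of AI-10-49, against 74 of 144 (51.4%, 42.9 to 59.8) in the variable part. These pooled shares mix loci, since 43 of the 74 constant-end regions were in TRA and TRD. Within loci the shares at the constant end and in the variable part were 23.3% and 28.6% (TRA and TRD), 71.4% and 60.8% (TRB), 7.69% and 10% (TRG), and 54.5% and 73.3% (IGH), so TRB had the opposite order. Of AI-10-49 RUNX1 sites, 6 of 13 (46.2%, 19.2 to 74.9) at the constant end and 16 of 19 (84.2%, 60.4 to 96.6) in the variable part were absent from DMSO. Genome-wide this share was 85.1%, close to that of the variable part. The pooled RUNX1 shares mix loci as well. At the constant end 0 of 5 were absent in IGH, where all 5 belong to the row over the diversity segments. The counts were 3 of 4 in TRA and TRD, 2 of 2 in TRB and 1 of 2 in TRG. All but 3 of the 10 DMSO sites lay at the constant end, and 5 of those at the constant end were in the IGH row. The intervals of the RUNX1 shares overlapped each other.

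**Figure D5:**
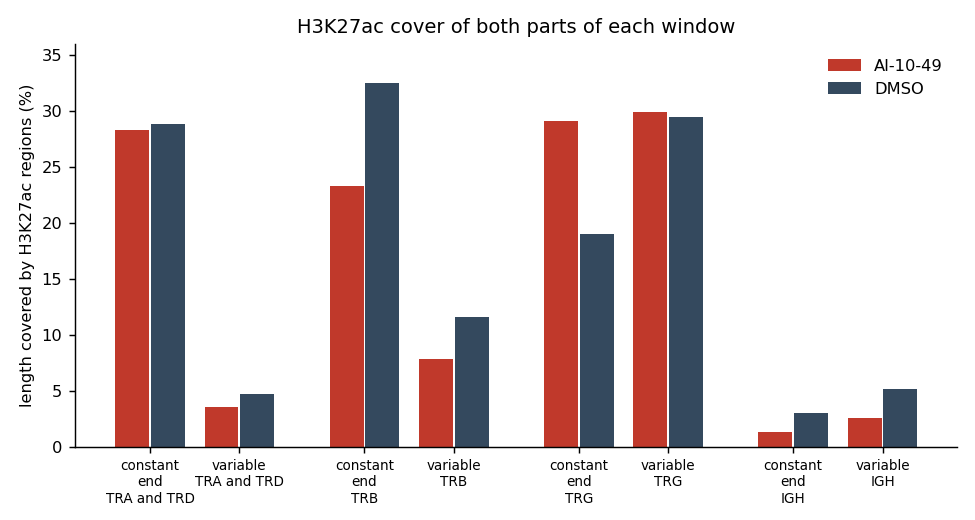
Length covered by H3K27ac regions, as a percentage of each part, for the constant end and the variable part of each window, with AI-10-49 bars (red) left of DMSO bars (blue) and 1 library each. Cover is higher at the constant end than in the variable part in TRA with TRD and in TRB, and nearly equal between parts in TRG in AI-10-49 (29.2% and 29.9%).

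Large stretches of each locus carried no acetylation in either list. The longest stretch empty in both lists was 268 kb in IGH, 199 kb in TRA and TRD, 119 kb in TRB and 28.5 kb in TRG. Those of IGH, TRB and TRA with TRD lay among variable segments by the known maps. That of TRA and TRD began at the low border of the window, which cuts it. That of TRG ran from 38.317 to 38.346 Mb, across the split at 38.324 Mb. Borders of the windows did not divide any peak. The RUNX1 sites nearest a border were 3.06 kb inside the low border of TRG in AI-10-49 (0.730 fragments per M reads) and, outside, 8.31 kb beyond the high border of TRA (0.666).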

How the data were processed

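ChIP-seq of ME-1 cells gave 4 deposited peak lists (RUNX1 and H3K27ac, AI-10-49 and DMSO, 1 library each). The 2 input libraries were not used here. Reads and peaks were handled with MACS2 2.1.0, Picard 1.96, SAMtools 1.3, Bowtie2 2.1.0 and CASAVA 1.4 on hg19, per the submitters' processing notes, which give no role or order. The input behind each peak list was not given in the sources used here. Per peak the authors deposited a ratio (fold enrichment over background at the summit), −log10 p and −log10 q values, and a score that was not used. Every list reached down to a q of about 0.05.

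Summit fragment numbers were solved from fold enrichment and −log10 p under the Poisson model of MACS2, with the library scaling factor at which numbers came out whole (all peaks in each list). Read totals were derived from the lowest recurring background, the scaling factor and the fragment length, taken as the narrowest peak width. They assume a genome size of 2700000000 bp. On data simulated under the same model 100% of fragment numbers were exact. This checks the solving, and cannot test whether the deposited lists follow the model or whether the read totals hold. Fragment numbers carry exact Poisson, shares exact Clopper-Pearson and ratios exact conditional binomial intervals (95%). PCR copies are not independent molecules. A DMSO peak that overlapped several AI-10-49 peaks was paired with the one with most fragments.

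The members, windows, splits and lists were chosen with earlier results of these data known. Named were all RUNX1 sites, per window the 3 H3K27ac regions of highest −log10 q in each list, those overlapping RUNX1 or within 5 kb of 23.025 Mb, and the foremost region of 1 list only. From these, the text names those that a result turns on. Segments and enhancers other than the alpha enhancer were placed from the known maps, since no hg19 annotation was at hand. For the same reason exon and intron positions are not given. Python 3.11.15, numpy 2.4.6, pandas 2.3.3, scipy 1.17.1 and matplotlib 3.10.9 were used. Alternatives covered the −log10 q minimum, list length, overlap, window borders, split, the ratio of fragment lengths, fold enrichment in place of fragments, and fragments less background.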

Additional observations from a re-analysis of the deposited data

How the results depend on the processing

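Of 144 recomputed values for 41 results, 100 stayed close to the main one. At a −log10 q minimum of 10, RUNX1 sites numbered 4 (TRB), 4 (TRG) and 7 (IGH) in AI-10-49 and 0 (TRG) and 4 (IGH) in DMSO, and H3K27ac regions 23, 14, 20 and 14 (TRA with TRD, TRB, TRG, IGH) in AI-10-49 and 32, 22, 16 and 31 in DMSO. At 5, DMSO had 1 RUNX1 site in TRG and 36 H3K27ac regions in TRB. With the AI-10-49 RUNX1 list cut to the length of the DMSO list, AI-10-49 had 2, 1, 2 and 5 sites (TRA with TRD, TRB, TRG, IGH), against 1, 0, 2 and 7 in DMSO. Shared RUNX1 sites fell to 12.5% (AI-10-49) and 40% (DMSO) when 50% of both intervals had to overlap, and shared H3K27ac regions to 41.4% and 29.8%. Summits within 250 bp gave 58.6% and 43.1%, and a margin of 1 kb 96.2% and 71.1%. The RUNX1 summit itself lay in H3K27ac at 68.8% of AI-10-49 sites.

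The split of the windows mattered most. With the constant end 1.5 times as long, the ratio of AI-10-49 RUNX1 density, constant end over variable part, was 6.89 (TRA with TRD), 3.41 (TRB) and 3.90 (IGH), and that of H3K27ac cover 20.3 and 10.9 (TRA with TRD, AI-10-49 and DMSO). In IGH the cover ratio turned to 3.996 (AI-10-49) and 1.97 (DMSO); the constant end then took in the acetylated variable region at the RUNX1 site with 90 fragments. With 0.67 times the length the RUNX1 density ratio was 4.48, 8.13 and 0 in TRA with TRD, TRB and IGH and turned to 1.09 in TRG. The cover ratio was 3.43 and 2.94 (TRA with TRD) and 0 and 0.0234 (IGH). At a −log10 q minimum of 5 the RUNX1 ratio of TRA with TRD was 22.7.

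No paired analysis was possible because there was 1 library per antibody and condition, and leaving one out was not an option. Depth limits sites of few fragments: absence from a list means that the q threshold was not reached, not that no fragments were there.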

Other observations

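Other loci of lymphocyte receptors were read in windows set from their known hg19 positions, which could not be checked against an annotation. The light chain loci had little RUNX1, with 1 site in AI-10-49 and 0 in DMSO in each of IGK and IGL. Their H3K27ac regions numbered 10 in AI-10-49 and 29 in DMSO (IGK), and 7 and 26 (IGL). As in IGH, the DMSO list was the longer one, and the covered length was 4.72 kb in AI-10-49 and 13.002 kb in DMSO in IGK, and 4.51 kb and 15.6 kb in IGL.

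The CD3 gene cluster, which encodes the signalling chains that carry the T cell receptor, had 1 RUNX1 site in each list, with summits of 3.97 (AI-10-49) and 2.19 (DMSO) fragments per M reads. Its highest H3K27ac region had 1.87 fragments per M reads in AI-10-49, against 5.44 in DMSO. CD79A, a signalling chain of the B cell receptor, had 1 RUNX1 site in AI-10-49 and 0 in DMSO, and 2 and 3 H3K27ac regions. No RUNX1 site lay at RAG1 and RAG2, which encode the recombinase, at DNTT, whose enzyme adds bases at the joins, at PTCRA, the pre-T cell receptor alpha chain, or at CD79B. H3K27ac regions there numbered 3 in AI-10-49 and 2 in DMSO (RAG1 and RAG2), 1 and 2 (DNTT), 2 and 0 (PTCRA), and 2 and 2 (CD79B).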
